A study of Mus musculus with 30 samples.

Results

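The members described here are 30 genes of lipid synthesis, 21 of sterol synthesis and its control and 9 of fatty acid synthesis, chosen by name as enzymes and regulators of both pathways, with no threshold on measured values but with earlier results of these data known. They were matched by Ensembl identifier to mouse symbols among the 49315 genes of the count files, and all 30 were read well enough to be tested. The study compared cultured 6694c2 cells, a mouse pancreatic ductal adenocarcinoma (PDAC) line derived from genetically engineered mice (p53 +/floxed, Pdx-cre, YFP-floxed among their alleles), with B16F10 cells, a mouse melanoma line. Each line received vehicle or 1 of 3 agents for 24 h, a STING agonist (225 μg/mL), IFNβ (1000 U/mL) or IFNγ (100 ng/mL), with 3 libraries in each of 8 groups, 24 in all. RNA sequencing of these cells asked how tumour cells themselves respond to the agonist and to both interferons. Each line stands for itself alone, and the labels do not say whether the 3 libraries of a group came from separate cultures, so the p-values measure the spread between these libraries, which may be technical. In bulk RNA, fewer cells that make a transcript and less of it per cell cannot be told apart.

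Cholesterol is built from acetyl-CoA through mevalonate, isoprenoid units and squalene to lanosterol, which a further series of enzymes turns into cholesterol. The transcription factor SREBP2, encoded by Srebf2, is released from its membrane anchor when sterols are scarce and raises the genes of the whole route, while INSIG1 holds it back. SREBP1, encoded by Srebf1, acts more on fatty acid synthesis, in which carbon from citrate is built into palmitate, elongated and desaturated. Interferons and the sterol route are known to influence each other in macrophages, where sterol synthesis falls after type I interferon.

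Each library held between 15543131 and 32266795 gene reads. Members were read well, with a median of 2173 reads per member and library and a lowest value of 141, for Tm7sf2. Expression is given as CPM (read counts relative to library size, after TMM scaling within a line), and changes as log2 fold changes with their standard error. A member is said to have risen or fallen where its adjusted p-value was under 0.05 in a quasi-likelihood test (edgeR), adjusted after Benjamini and Hochberg over the 21138 genes kept. With 3 libraries against 3, an exact test of a single gene cannot go below p = 0.1. The melanocyte markers (7 of 7 measured, Dct among them) summed to between 19699 and 19938 CPM in B16F10 cells with vehicle and to between 77.5 and 80.4 CPM in 6694c2 cells. The ductal epithelial markers (7 of 7, Krt8 among them) summed to between 12810 and 13755 CPM in 6694c2 cells and to between 14.6 and 20.98 CPM in B16F10 cells. Genes read well in the vehicle libraries of 1 line and hardly in the other (198 such genes for 6694c2 cells) gave the share of the other line's transcripts. In B16F10 libraries their median level, as a percentage of that in 6694c2 cells, was 0.211% with vehicle, 0.310% with IFNγ, 0.374% with IFNβ and 0.896% with STING agonist, and so moved with the agonist. The share in 6694c2 libraries, taken the same way, was 0.605% with vehicle, 0.648% with IFNγ, 0.312% with IFNβ and 0.259% with STING agonist. Subtracting these shares left 17 sterol genes called with IFNγ and 10 with STING agonist in B16F10 cells, as many as without subtraction. The interferon response was checked with Ifit1, an interferon-induced antiviral gene. Its log2 fold change against vehicle was 3.01 with IFNγ, 4.13 with IFNβ and 2.17 with STING agonist in B16F10 cells. In 6694c2 cells it was 3.64, 8.77 and 0.62, with an adjusted p of 0.0339 for the last. Of the 5 genes of this check, 2 rose (Ifit1 and Irf7, 1.62) and 1 fell (Gbp2, -1.41) with STING agonist in 6694c2 cells, and their summed level was 41.95 ± 8.40 CPM (SD, n = 3) with vehicle and 26.3 ± 1.65 CPM with the agonist.

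The windows upstream of 5 sterol genes whose changes are described below are shown because the 2 lines and the 2 interferons moved these genes differently. Each is the 250 bases before a RefSeq transcript start (build GRCm38.p6, on the gene's own strand). Capitals mark letters of 5 motifs found on either strand: the sterol regulatory element TCACNCCAC, the E-box CACGTG, the CCAAT box, the interferon-stimulated response element core (GAAA, any 2 bases, GAAA) and the gamma-activated site TTCNNNGAA.
Hmgcs1: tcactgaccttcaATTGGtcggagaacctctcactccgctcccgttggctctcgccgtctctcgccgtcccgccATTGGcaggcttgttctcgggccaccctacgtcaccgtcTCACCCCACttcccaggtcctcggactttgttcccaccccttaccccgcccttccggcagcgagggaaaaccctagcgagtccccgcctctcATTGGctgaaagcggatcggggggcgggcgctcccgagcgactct
Idi1: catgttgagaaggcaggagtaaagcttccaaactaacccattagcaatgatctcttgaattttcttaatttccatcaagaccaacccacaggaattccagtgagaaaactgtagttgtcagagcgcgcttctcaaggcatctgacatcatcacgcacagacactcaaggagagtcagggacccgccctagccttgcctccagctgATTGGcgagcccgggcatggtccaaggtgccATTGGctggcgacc
Hsd17b7: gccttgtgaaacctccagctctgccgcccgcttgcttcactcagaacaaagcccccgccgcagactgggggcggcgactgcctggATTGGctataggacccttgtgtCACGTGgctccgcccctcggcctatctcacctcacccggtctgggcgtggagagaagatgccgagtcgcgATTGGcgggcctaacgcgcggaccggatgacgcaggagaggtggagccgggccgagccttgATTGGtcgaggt
Ebp: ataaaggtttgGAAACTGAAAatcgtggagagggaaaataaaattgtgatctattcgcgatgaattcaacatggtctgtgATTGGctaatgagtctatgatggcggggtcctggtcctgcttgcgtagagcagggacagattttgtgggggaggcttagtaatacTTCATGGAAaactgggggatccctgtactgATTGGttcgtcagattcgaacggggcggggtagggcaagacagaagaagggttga
Insig1: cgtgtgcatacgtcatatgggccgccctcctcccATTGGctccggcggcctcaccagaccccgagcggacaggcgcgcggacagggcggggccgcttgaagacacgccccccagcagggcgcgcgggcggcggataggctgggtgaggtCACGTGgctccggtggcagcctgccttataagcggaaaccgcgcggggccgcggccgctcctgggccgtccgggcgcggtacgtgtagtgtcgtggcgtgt
The windows lie at chr13:119690101-119690350 for Hmgcs1 and chr13:8885356-8885605 for Idi1, both on the plus strand, as does that of Insig1 at chr5:28071162-28071411. Those of Hsd17b7, at chr1:169969206-169969455, and Ebp, at chrX:8193513-8193762, are read on the minus strand. The count files place the genes themselves at chr13:119690462-119708086 (Hmgcs1, ENSMUSG00000093930), chr13:8885501-8892451 (Idi1, ENSMUSG00000058258), chr1:169949535-169969241 (Hsd17b7, ENSMUSG00000026675), chrX:8185329-8193512 (Ebp, ENSMUSG00000031168) and chr5:28071363-28078662 (Insig1, ENSMUSG00000045294) in mm10, so the windows hold promoter and, where the gene models differ at the start, some first exon. Promoter windows were found for 23 of the 30 members. A CCAAT box stood in 16 of 17 sterol genes and 2 of 6 fatty acid genes, a gene counting where any of its windows held it. By window that was 16 of 20 and 3 of 8, against 33.8% of all 32851 promoter windows of this length. The GC box GGGCGG, not capitalised above, stood in 16 of 17 sterol genes and 3 of 6 fatty acid genes. By window that was 17 of 20 and 4 of 8, against 32.7% of all windows. The E-box was found in 4 sterol genes (Hsd17b7, Insig1, Dhcr7 and Sc5d) and no fatty acid gene. By window that was 4 of 20 for the sterol genes, against 6.02% of all windows. Among the 23 members with windows only Hmgcs1 held the sterol regulatory element in these letters, against 1.05% of windows. Of these 23 members Ebp was the only one with either interferon motif and held both, where 2.98% of all windows held the response element core and 7.02% the gamma-activated site. These matches describe letters in a window and not bound sites.

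Most sterol synthesis genes rose in B16F10 cells with IFNγ, and 10 rose with STING agonist, while with IFNβ 6 were called, in both directions. With IFNγ 16 of 21 rose and 1 fell, where 12% of all genes tested rose and 10.8% fell. The median log2 fold change of the 21 genes was 0.27 with IFNγ, against 0 over all genes. With STING agonist 10 of 21 rose and none fell, where 1.93% of all genes rose and 1.53% fell, and the median of the list was 0.24. With IFNβ 2 rose and 4 fell, where 12.7% of all genes rose and 11.2% fell, and the median was -0.062 against 0.019 over all genes. The members are read more deeply than most genes, so the shares were also taken over the 9145 genes with at least the 6084 reads that the least-read member had over the 24 libraries. Of these genes 20% rose with IFNγ, 3.97% with STING agonist and 21.1% with IFNβ, and 20.7%, 3.37% and 22.4% fell, so the share of sterol genes called with IFNβ (28.6%) lay below that of well-read genes (43.5%). The 3 comparisons share the vehicle libraries. The summed level of the 21 genes was 1578 ± 35.8 CPM (SD, n = 3) with vehicle, 1948 ± 37.7 with IFNγ, 1524 ± 15.4 with IFNβ and 1837 ± 8.19 with STING agonist. Leaving out 1 library at a time gave between 14 and 17 called sterol genes with IFNγ, between 8 and 9 with STING agonist and between 4 and 6 with IFNβ. The split with IFNβ, 2 higher and 4 lower, became 3 higher and 2 lower without IFNβ replicate 1, and 4 higher and 2 lower with library totals in place of TMM.

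**Figure D1:**
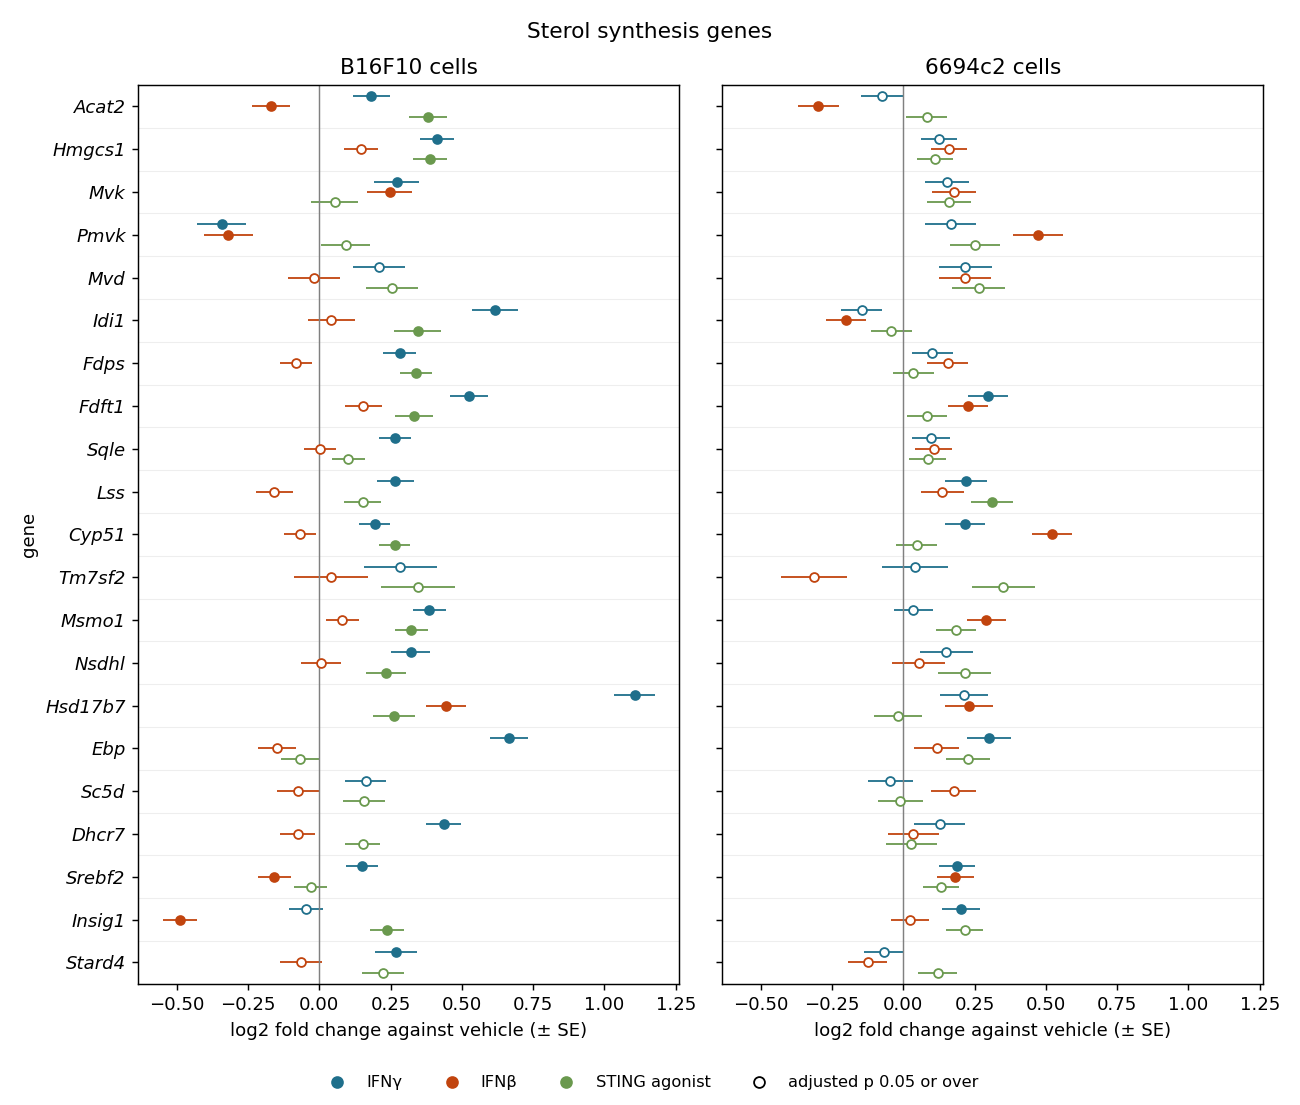
Log2 fold change against vehicle (horizontal axis, ± SE) of the 21 sterol synthesis genes in B16F10 cells (left) and 6694c2 cells (right), from the first enzymes at the top to the regulators at the bottom. Filled points passed the adjusted p-value threshold of 0.05 and open points did not; with IFNγ (blue) in B16F10 cells 16 filled points lie above 0 and 1, Pmvk, below.

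Of the 7 early enzymes, which carry acetyl-CoA to isoprenoid units, 5 rose with IFNγ in B16F10 cells (Acat2, Hmgcs1, Mvk, Idi1 and Fdps) and 4 with STING agonist (the same without Mvk). Hmgcs1, which makes HMG-CoA, read 95.7, 102 and 99.4 CPM with vehicle, 133, 137 and 125 CPM with IFNγ, 127, 129 and 133 CPM with STING agonist and 115, 109 and 106 CPM with IFNβ. Its IFNγ and STING agonist libraries all lay above its vehicle libraries (log2 fold changes 0.41 ± 0.059, adjusted p = 3.16e-10, and 0.39 ± 0.060, adjusted p = 4.78e-08). With IFNβ the 3 libraries were above vehicle too, but the difference of 0.15 ± 0.059 missed the threshold (adjusted p = 0.0539). Idi1, which interconverts both isoprenoid units, read 26.1, 28.4 and 25.3 CPM with vehicle and 38.9, 39.9 and 43.6 CPM with IFNγ (log2 fold change 0.62 ± 0.081, adjusted p = 5.01e-12). With STING agonist it read 34.8, 33.3 and 33.5 CPM (log2 fold change 0.35 ± 0.083, adjusted p = 0.00271), and with IFNβ 30.4, 25.98 and 25.9 CPM, which overlapped vehicle. Acat2, which joins acetyl-CoA at the entry to the pathway, read 60.2, 59.6 and 67.9 CPM with vehicle and 81.8, 78.7 and 84.1 CPM with STING agonist (log2 fold change 0.38 ± 0.066, adjusted p = 2.76e-06). Under both interferons Acat2 moved in opposite directions by small amounts: it rose by 0.18 with IFNγ (adjusted p = 0.0279) and its change with IFNβ was -0.17 (adjusted p = 0.048). These calls of Acat2 were lost in 4 of 6 and 3 of 6 fits that left out 1 library, with adjusted p-values of up to 0.173 and 0.379. Fdps, which makes farnesyl diphosphate, read 137, 142 and 145 CPM with vehicle and 188, 176 and 174 CPM with STING agonist, without overlap (log2 fold change 0.34 ± 0.057, adjusted p = 8.56e-07).

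Pmvk, phosphomevalonate kinase, fell with both interferons in B16F10 cells, while Mvk, the kinase just before it in the route, rose. Pmvk read 29.2, 27.6 and 28.6 CPM with vehicle, 22.4, 21.7 and 23.3 CPM with IFNγ and 23.5, 21.3 and 23.8 CPM with IFNβ. Both interferon groups lay below vehicle (log2 fold changes -0.34 ± 0.086, adjusted p = 0.000753, and -0.32 ± 0.086, adjusted p = 0.00171), which made Pmvk the one sterol gene that fell with IFNγ. Mvk read 29.2, 29.4 and 32.01 CPM with vehicle, 37.7, 37.9 and 33.8 CPM with IFNγ and 33.3, 35.3 and 39.1 CPM with IFNβ, and rose with both (0.27 ± 0.080, adjusted p = 0.00479, and 0.25 ± 0.080, adjusted p = 0.0115). The IFNβ call of Mvk was lost in 3 of 6 fits without 1 library (adjusted p up to 0.102). Mvd, the decarboxylase that follows Pmvk, passed the threshold with no treatment in B16F10 cells, its log2 fold changes lying between -0.018 with IFNβ and 0.26 with STING agonist.

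Squalene and lanosterol are made by Fdft1, Sqle and Lss. Fdft1, squalene synthase, read 58.6, 55.9 and 62.1 CPM with vehicle, 86.5, 86.8 and 80.8 CPM with IFNγ and 73.1, 73.6 and 75.7 CPM with STING agonist. Neither treated group overlapped vehicle (log2 fold changes 0.52 ± 0.065, adjusted p = 2.89e-13, and 0.33 ± 0.066, adjusted p = 8.66e-05). Counts of Fdft1 are uncertain, since 26.8% of its exon bases are shared with the oppositely transcribed Ctsb, which was read far more (mean 21425 against 2458 reads per library), and it is not stated whether strand was used in counting. Ctsb itself changed by 0.22 with IFNγ, 0.30 with IFNβ and 0.16 with STING agonist in B16F10 cells on the log2 scale, and its part in the Fdft1 counts was not tested. Sqle, squalene epoxidase, read 137, 145 and 152 CPM with vehicle and 170.0, 178 and 174 CPM with IFNγ (log2 fold change 0.27 ± 0.057, adjusted p = 3.84e-05). Its log2 fold change was 0.10 ± 0.057 with STING agonist (adjusted p = 0.453) and 0.0025 ± 0.057 with IFNβ. Lss, lanosterol synthase, rose with IFNγ (0.27 ± 0.064, adjusted p = 0.000362), from 71.4, 70.4 and 70.8 CPM to 86.4, 89.98 and 79.4 CPM.

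After lanosterol, the largest changes of the pathway were those of Hsd17b7 and Ebp with IFNγ in B16F10 cells. Hsd17b7, the ketoreductase of the demethylation steps, read 36.9, 37.6 and 37.9 CPM with vehicle, 77.2, 85.96 and 78.7 CPM with IFNγ, 54.9, 50.3 and 47.6 CPM with IFNβ and 41.7, 47.1 and 45.6 CPM with STING agonist. All 9 treated libraries were above all 3 vehicle libraries. The IFNγ change (log2 fold change 1.11 ± 0.070, adjusted p = 7.98e-42) was the only one of any member against vehicle over 2-fold, where 3.82% of all genes changed that much. With IFNβ the change was 0.44 ± 0.072 (adjusted p = 2.57e-08) and with STING agonist 0.26 ± 0.073 (adjusted p = 0.0171). The last of these was lost in 5 of 6 fits without 1 library (adjusted p up to 0.212). Ebp, the isomerase that moves the ring double bond, read 53.7, 59.6 and 58.2 CPM with vehicle and 88.8, 92.7 and 90.6 CPM with IFNγ (log2 fold change 0.66 ± 0.066, adjusted p = 7.61e-20). With IFNβ its libraries read 51.1, 51.9 and 51.9 CPM and with STING agonist 53.9, 54.6 and 55.4 CPM. The IFNβ libraries thus lay just below vehicle, but neither difference passed the threshold (-0.15 ± 0.067, adjusted p = 0.0995, and -0.066 ± 0.068, adjusted p = 0.766). The window of Ebp above held both interferon motifs and that of Hsd17b7 neither, and any part of the motifs in these changes was not tested.

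The other enzymes after lanosterol changed less. Dhcr7, the last reductase, read 93.6, 92.5 and 92.5 CPM with vehicle and 125, 128 and 124 CPM with IFNγ (log2 fold change 0.44 ± 0.060, adjusted p = 6.28e-11), and passed the threshold with neither of the other treatments. Msmo1, a methyl oxidase, read 102, 105 and 107 CPM with vehicle, 137, 138 and 135 CPM with IFNγ and 133, 132 and 128 CPM with STING agonist. It rose with both (0.39 ± 0.059, adjusted p = 2.91e-09, and 0.32 ± 0.059, adjusted p = 1.08e-05) and differed by 0.081 ± 0.059 with IFNβ (adjusted p = 0.378). Cyp51, the lanosterol demethylase, and Nsdhl, a decarboxylating dehydrogenase, also rose with IFNγ (0.19 and 0.32) and STING agonist (0.26 and 0.24). Without IFNγ replicate 1 the IFNγ call of Cyp51 was lost (adjusted p = 0.0521), and the STING agonist call of Nsdhl was lost in all 6 fits without 1 library (adjusted p up to 0.162). Tm7sf2, a sterol reductase, and Sc5d, a desaturase, passed the threshold with no treatment, with log2 fold changes between 0.042 and 0.35 for Tm7sf2 and between -0.075 and 0.16 for Sc5d. Tm7sf2 shares 15.3% of its exon bases with Vps51 and Cyp51 shares 3.76% with Akap9, so their counts are uncertain. With IFNγ Vps51 rose by 0.41 and Akap9 by 0.44 on the log2 scale in B16F10 cells, and their part in these counts was not tested.

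Among the regulators in B16F10 cells, Insig1 and Srebf2 fell with IFNβ. Insig1, which retains SREBP in the endoplasmic reticulum, read 112, 113 and 115 CPM with vehicle, 109.9, 106 and 113 CPM with IFNγ, 82.8, 80.3 and 79.4 CPM with IFNβ and 126, 135 and 140.4 CPM with STING agonist. The IFNβ libraries were below and the STING agonist libraries above every vehicle library, while the IFNγ libraries overlapped vehicle. Insig1 fell with IFNβ (log2 fold change -0.49 ± 0.060, adjusted p = 2.61e-13), rose with STING agonist (log2 fold change 0.24 ± 0.060, adjusted p = 0.00517) and differed by -0.046 ± 0.060 with IFNγ (adjusted p = 0.682). The rise with STING agonist was lost without STING agonist replicate 2 or 3 (adjusted p up to 0.128). Srebf2 read 138, 139.7 and 144 CPM with vehicle, 156, 160.2 and 151 CPM with IFNγ, 115, 134 and 129 CPM with IFNβ and 137, 141 and 135 CPM with STING agonist. It rose with IFNγ (0.15 ± 0.057, adjusted p = 0.0423) and fell with IFNβ (-0.16 ± 0.058, adjusted p = 0.031), calls that were lost in 5 of 6 and 3 of 6 fits without 1 library (adjusted p up to 0.15 and 0.29). Stard4, a sterol carrier, rose with IFNγ (0.27 ± 0.073, adjusted p = 0.00183).

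**Figure D2:**
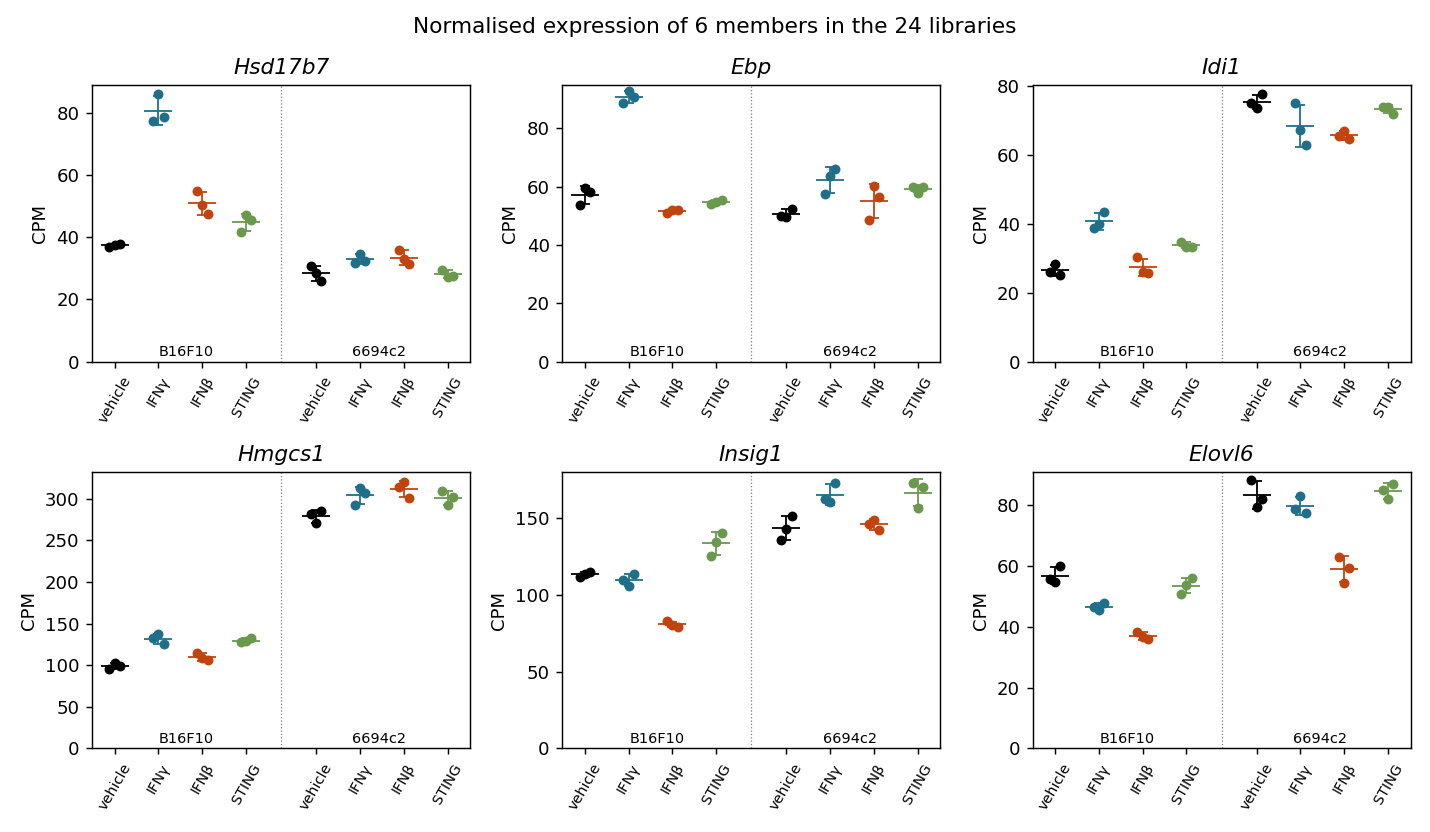
CPM (vertical axis, from 0) of 5 sterol synthesis genes and the elongase Elovl6 in each of the 24 libraries, by line and treatment. Points are libraries and bars the mean ± SD of 3; Hsd17b7 and Ebp stand highest in B16F10 cells with IFNγ, and Elovl6 lowest with IFNβ within each line.

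A direct test of IFNβ against IFNγ in B16F10 cells put 17 of 21 sterol genes lower with IFNβ and none higher, where 7.85% of all genes were lower and 6.65% higher. Among the 9145 well-read genes 14.6% were lower. The median log2 difference of the list was -0.31, against 0 over all genes. Ebp differed most (-0.81 ± 0.066, adjusted p = 1.11e-27), followed by Hsd17b7 (-0.66 ± 0.069, adjusted p = 4.62e-18) and Dhcr7 (-0.51 ± 0.060, adjusted p = 2.63e-14), ordered by p-value. Hmgcs1 (-0.26), Sqle (-0.26), Srebf2 (-0.31) and Insig1 (-0.44) were all lower with IFNβ too. The genes that passed the threshold in neither direction were Mvk, Pmvk, Mvd and Tm7sf2. Pmvk, which fell with both interferons, differed by 0.023 ± 0.088 between them.

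In 6694c2 cells 6 sterol genes rose with each interferon and 1 with STING agonist. With IFNγ none of the 21 fell, where 7.89% of all genes rose and 5.66% fell, and with IFNβ 2 fell, where 10.4% rose and 7.86% fell. With STING agonist Lss rose, where 0.203% of all genes rose and 0.156% fell, and 10 of the 21 were higher at an unadjusted p under 0.05, where 4.53% of all genes and 7.07% of well-read genes were. The medians of the list were 0.15, 0.16 and 0.12 on the log2 scale, against 0 over all genes in each. The summed level was 2304 ± 89.5 CPM (SD, n = 3) with vehicle, 2524 ± 43.8 with IFNγ, 2580 ± 68.1 with IFNβ and 2497 ± 57.8 with STING agonist. Among the 9145 well-read genes 13.9%, 19.2% and 0.383% rose and 9.76%, 13.9% and 0.350% fell, so that the share of called sterol genes stood near that of well-read genes with IFNβ (38.1% against 33.1%) and with IFNγ (28.6% against 23.7%). The count with IFNγ was 2 without vehicle replicate 2 or IFNγ replicate 3 and 3 without IFNγ replicate 2. With IFNβ it was 4 without vehicle replicate 2 and 5 without IFNβ replicate 1, and the split of 6 higher and 2 lower became 3 and 3 with library totals and 4 and 3 with RLE size factors. With STING agonist it was 0 without vehicle replicate 2 or 3 or STING agonist replicate 1 or 3.

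Cyp51 showed the largest rise among sterol genes in 6694c2 cells. It read 193, 204 and 234 CPM with vehicle, 279, 325 and 300.4 CPM with IFNβ and 245, 249 and 239 CPM with IFNγ, both interferon groups above every vehicle library. It rose by 0.52 ± 0.070 with IFNβ (adjusted p = 1.66e-07) and by 0.22 ± 0.070 with IFNγ (adjusted p = 0.0317). Pmvk read 27.99, 33.8 and 37.4 CPM with vehicle and 42.1, 46.8 and 48.6 CPM with IFNβ, a rise of 0.47 ± 0.088 (adjusted p = 5.88e-05) where B16F10 cells had shown a fall. Msmo1 read 134, 145 and 153 CPM with vehicle and 166, 185 and 178 CPM with IFNβ (log2 fold change 0.29 ± 0.069, adjusted p = 0.00153). Fdft1 read 116, 121 and 133 CPM with vehicle, 155, 152 and 148 CPM with IFNγ and 133, 139.8 and 160.3 CPM with IFNβ, and rose with both (0.30 ± 0.070, adjusted p = 0.00197, and 0.23 ± 0.070, adjusted p = 0.0164). The IFNβ call was lost in 3 of 6 fits without 1 library (adjusted p up to 0.199). Ctsb, which shares exon bases with it, changed by 0.13 with IFNγ and 0.56 with IFNβ in these cells. Ebp read 49.9, 49.7 and 52.5 CPM with vehicle and 57.4, 63.5 and 66.2 CPM with IFNγ (log2 fold change 0.30 ± 0.078, adjusted p = 0.0051), a call lost without IFNγ replicate 3 (adjusted p = 0.0557).

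Acat2 and Idi1 fell with IFNβ in 6694c2 cells. Acat2 read 83.9, 80.8 and 94.95 CPM with vehicle and 68.9, 67.2 and 75.1 CPM with IFNβ, without overlap (log2 fold change -0.30 ± 0.073, adjusted p = 0.00221). Idi1 read 75.1, 73.9 and 77.8 CPM with vehicle and 65.4, 67.1 and 64.7 CPM with IFNβ (log2 fold change -0.20 ± 0.071, adjusted p = 0.042). The call of Idi1 was lost in 5 of 6 fits without 1 library (adjusted p up to 0.132), while that of Acat2 was kept in all 6. Hmgcs1 read 281, 271 and 285 CPM with vehicle, 293, 313 and 307 CPM with IFNγ, 314, 320.3 and 301 CPM with IFNβ and 309.7, 293 and 302 CPM with STING agonist, and passed the threshold with none of them (0.13 ± 0.063, 0.16 ± 0.063 and 0.11 ± 0.063). Sqle differed by 0.098, 0.11 and 0.086 in the same order, also below the threshold. Hsd17b7, the leading gene of B16F10 cells, read 30.8, 28.5 and 26.1 CPM with vehicle, 31.8, 34.8 and 32.5 CPM with IFNγ and 36.01, 32.9 and 31.3 CPM with IFNβ. Its change was 0.21 ± 0.086 with IFNγ (adjusted p = 0.103) and 0.23 ± 0.084 with IFNβ (adjusted p = 0.0495), the latter lost in 4 of 6 fits without 1 library (adjusted p up to 0.301).

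Among the regulators in 6694c2 cells, Srebf2 rose with both interferons and Insig1 with IFNγ, all by under 0.25 on the log2 scale. Srebf2 read 374, 348 and 344 CPM with vehicle, 376, 417 and 421 CPM with IFNγ, 405, 409 and 395 CPM with IFNβ and 396, 372 and 399 CPM with STING agonist. Its changes were 0.19 ± 0.065 (adjusted p = 0.0441), 0.18 ± 0.065 (adjusted p = 0.0406) and 0.13 ± 0.064 (adjusted p = 0.634). Insig1 read 136, 143 and 152 CPM with vehicle, 162, 160.4 and 173 CPM with IFNγ, 146, 149 and 142 CPM with IFNβ and 173, 157 and 170.2 CPM with STING agonist. Only the IFNγ change passed the threshold (log2 fold change 0.20 ± 0.067, adjusted p = 0.0328), although the STING agonist libraries also lay above every vehicle library (0.22 ± 0.066, adjusted p = 0.236). The calls of Srebf2 with each interferon and of Insig1 and Cyp51 with IFNγ were each lost in 4 of 6 fits without 1 library (adjusted p up to 0.195 for Srebf2, 0.179 for Insig1 and 0.157 for Cyp51). Lss read 77.5, 68.96 and 75.3 CPM with vehicle and 95.4, 83.96 and 95.7 CPM with STING agonist (log2 fold change 0.31 ± 0.074, adjusted p = 0.0411), and the call was lost when the other line's share was subtracted. A direct test of IFNβ against IFNγ in 6694c2 cells put 4 sterol genes higher (Cyp51, Msmo1, Pmvk and Sc5d) and 2 lower (Tm7sf2 and Acat2), where 7.30% of all genes were higher and 6.57% lower (12.9% and 11.4% of the well-read genes). Without IFNγ replicate 1 or 2 this count of 6 became 2, and without IFNβ replicate 1 it became 3. With RLE size factors or library totals the split of 4 higher and 2 lower became 3 and 3. The call of Sc5d was lost with DESeq2 and in 5 of 6 fits without 1 library (adjusted p up to 0.235), while that of Cyp51 was kept in all 6. The median difference of the list was -0.0053 on the log2 scale, beside -0.31 in B16F10 cells.

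The difference between lines in the response to each treatment was tested in a joint fit of the 24 libraries, as the log2 fold change in 6694c2 cells minus that in B16F10 cells. For IFNγ this difference was below 0 for 7 of 21 sterol genes and above 0 for 1, where it was below 0 for 4.95% and above 0 for 4.52% of all genes (9.29% and 9.13% of the well-read genes). The leading genes were Hsd17b7 (-0.91 ± 0.11, adjusted p = 5.68e-08), Idi1 (-0.78 ± 0.10, adjusted p = 3.13e-07) and Msmo1 (-0.37 ± 0.085, adjusted p = 0.00253). The gene above 0 was Pmvk (0.49 ± 0.12, adjusted p = 0.00508). The other 4 below 0 were Ebp, Hmgcs1, Stard4 and Dhcr7. Without IFNγ replicate 2 of B16F10 cells the count of 8 became 4, and without vehicle replicate 1 or 3 of B16F10 cells 5. With RLE size factors 6 were below 0 and 2 above. For IFNβ 4 genes were above 0 and none below, where 6.16% of all genes were above and 5.90% below (13% and 10.5% of the well-read genes). These were Pmvk (0.76 ± 0.12, adjusted p = 1.12e-05), Cyp51 (0.56 ± 0.089, adjusted p = 1.28e-05), Insig1 (0.48 ± 0.083, adjusted p = 4.82e-05) and Srebf2 (0.31 ± 0.085, adjusted p = 0.0098). With library totals 4 were above and 1 below. For STING agonist Idi1 (-0.40 ± 0.10, adjusted p = 0.0241) and Hmgcs1 (-0.29 ± 0.079, adjusted p = 0.0417) were below 0, where 1.56% of all genes were below and 0.568% above. Both of these were lost when the other line's share was subtracted, and in 7 and 11 of 12 fits without 1 library (adjusted p up to 0.104 and 0.16).

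Other genes of sterol synthesis and uptake, 12 that are not members, were mixed. In B16F10 cells 5 rose and 2 fell with IFNγ, 5 rose and 3 fell with IFNβ and 3 rose with STING agonist. These were 58.3%, 66.7% and 25% of the list, against 40.7%, 43.5% and 7.34% of well-read genes. In 6694c2 cells 3 rose with IFNγ, 7 rose and 1 fell with IFNβ, and none passed the threshold with STING agonist. With IFNγ and IFNβ these were 25% and 66.7% of the list, against 23.7% and 33.1% of well-read genes. The shares over all genes are those given with the sterol genes. Npc2, which moves cholesterol out of lysosomes, read 274, 263 and 277 CPM with vehicle and 361, 339 and 390.4 CPM with IFNβ in B16F10 cells (log2 fold change 0.42 ± 0.053, adjusted p = 5.09e-13), and also rose with IFNβ in 6694c2 cells (log2 fold change 0.40 ± 0.070, adjusted p = 2.64e-05). Insig2, a relative of Insig1 with the same role, fell with IFNβ in B16F10 cells (log2 fold change -0.28 ± 0.068, adjusted p = 0.000543) and in 6694c2 cells (log2 fold change -0.26 ± 0.085, adjusted p = 0.0261). Soat1, which esterifies cholesterol for storage, read 34.8, 34.02 and 35.5 CPM with vehicle and 48.2, 56.4 and 49.1 CPM with IFNβ in 6694c2 cells (log2 fold change 0.56 ± 0.082, adjusted p = 1.05e-06). Of 9 genes of oxysterol handling and sterol efflux tested, 3 rose and 1 fell with IFNγ, 2 rose and 1 fell with IFNβ and 1 rose with STING agonist in B16F10 cells. These were 44.4%, 33.3% and 11.1% of those tested, against 40.7%, 43.5% and 7.34% of well-read genes. In 6694c2 cells 2 rose and 1 fell with IFNγ, 1 rose and 1 fell with IFNβ and 1 fell with STING agonist. With IFNγ 33.3% were called, against 23.7% of well-read genes. With IFNβ and STING agonist 33.1% and 0.733% of well-read genes were called. The gene that fell in 6694c2 cells with IFNβ and with STING agonist was Apoe, a cholesterol carrier. It was at 3.82 ± 0.917 CPM (SD, n = 3) with vehicle, 2.27 ± 0.212 with IFNβ and 1.84 ± 0.464 with STING agonist. In B16F10 cells Apoe was at 707 ± 17.7 CPM with vehicle and also fell with IFNβ (log2 fold change -0.41). The share of B16F10 transcripts in the 6694c2 libraries went from 0.605% to 0.312% and 0.259%, and the summed melanocyte markers from 79.3 to 33.2 and 19.2 CPM. Their part in the fall of Apoe in 6694c2 cells was not tested. Abca1, the cholesterol exporter, rose in B16F10 cells with IFNβ, from 22.7, 27.8 and 29.1 CPM to 48.01, 57.7 and 42.8 CPM (log2 fold change 0.90 ± 0.081, adjusted p = 3.23e-23). Ch25h, which makes an oxysterol that restrains SREBP, was at 0 in all 12 B16F10 libraries and at or below 0.157 CPM in all 12 libraries of 6694c2 cells, so no fold is given. Mylip, a ubiquitin ligase induced by sterols, rose in B16F10 cells with IFNγ (1.17 ± 0.090), IFNβ (0.79 ± 0.091) and STING agonist (0.34 ± 0.095).

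Of the fatty acid synthesis genes 5 fell with IFNβ in B16F10 cells and 3 in 6694c2 cells. In B16F10 cells 3 of 9 rose and 1 fell with IFNγ, 1 rose and 5 fell with IFNβ, and 1 rose with STING agonist. Their median log2 fold changes were 0.10, -0.14 and -0.014. In 6694c2 cells 1 rose with IFNγ, 1 rose and 3 fell with IFNβ, and none passed the threshold with STING agonist, with medians of 0.10, -0.033 and 0.086. With IFNβ 66.7% of the list was called in B16F10 cells and 44.4% in 6694c2 cells, against 43.5% and 33.1% of well-read genes. With IFNγ 44.4% was called in B16F10 cells and 11.1% in 6694c2 cells, near and below the 40.7% and 23.7% of well-read genes. The 1 gene called with STING agonist in B16F10 cells was 11.1% of the list, against 7.34% of well-read genes. The shares over all genes are those given with the sterol genes. The summed level of the 9 genes was 2453 ± 116 CPM (SD, n = 3) with vehicle and 2120 ± 134 with IFNβ in B16F10 cells, and 2800 ± 186 and 2479 ± 111 CPM in 6694c2 cells. Scd2, by far the most read of the 9, weighs most in these sums and fell with IFNβ in both lines, so they do not describe the other genes. With STING agonist in 6694c2 cells 3 of the 9 were higher at an unadjusted p under 0.05, where 4.53% of all genes and 7.07% of well-read genes were. In 6694c2 cells with IFNβ 3 were lower in every fit without 1 library, while the number higher ran from 0 to 3, the latter without vehicle replicate 1, and was 0 with library totals. With library totals 2 rose and 2 fell with IFNγ in B16F10 cells, and 1 rose and 1 fell in 6694c2 cells. The call with STING agonist in B16F10 cells, that of Scd1, was lost in 5 of 6 fits without 1 library (adjusted p up to 0.199). The count with IFNγ in 6694c2 cells became 3 without vehicle replicate 1 and 2 without IFNγ replicate 1.

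**Figure D3:**
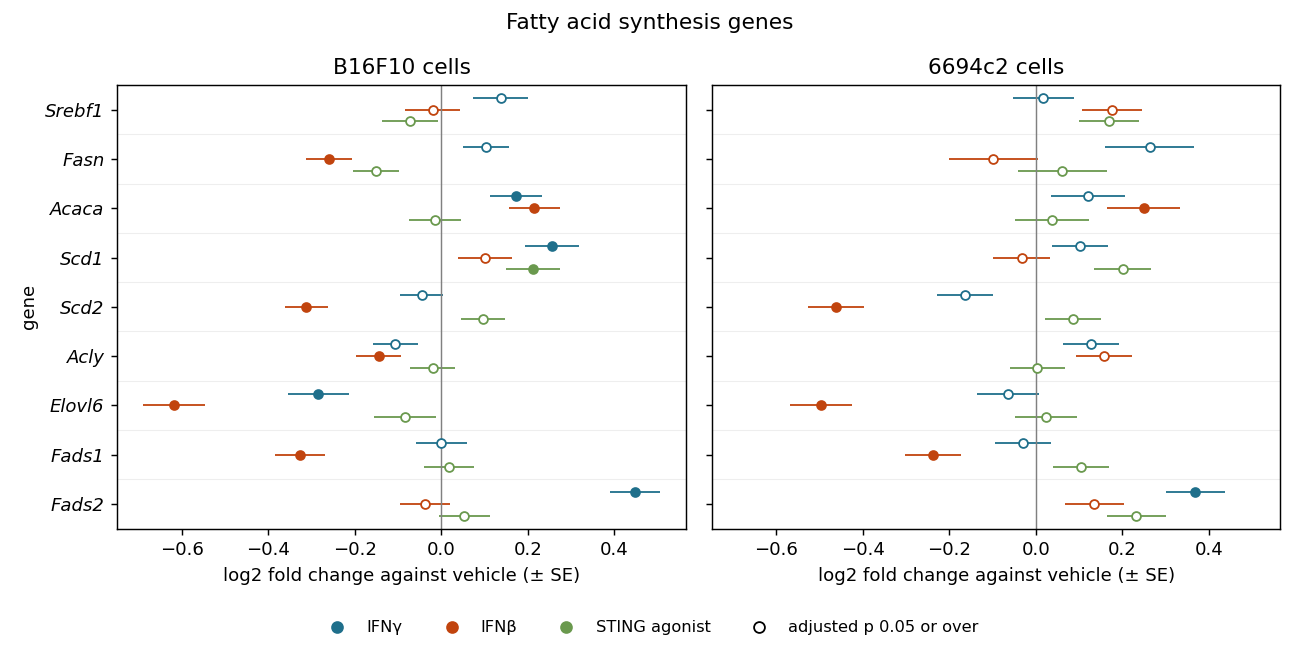
Log2 fold change against vehicle (horizontal axis, ± SE) of the 9 fatty acid synthesis genes in B16F10 cells (left) and 6694c2 cells (right). Filled points passed the adjusted p-value threshold of 0.05; Elovl6, Scd2 and Fads1 lie below 0 with IFNβ (red) in both lines and Fads2 above 0 with IFNγ (blue) in both.

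Elovl6, Scd2 and Fads1 fell with IFNβ in both lines. Elovl6, which elongates palmitate, read 55.6, 54.8 and 59.9 CPM with vehicle and 38.3, 36.7 and 35.9 CPM with IFNβ in B16F10 cells (log2 fold change -0.62 ± 0.072, adjusted p = 7.04e-15). In 6694c2 cells it read 88.3, 79.5 and 82.02 CPM with vehicle and 63.00, 54.3 and 59.5 CPM with IFNβ (log2 fold change -0.50 ± 0.072, adjusted p = 6.35e-07). In neither line did the groups overlap. With IFNγ Elovl6 read 46.4, 45.6 and 47.9 CPM in B16F10 cells, also below vehicle (log2 fold change -0.28 ± 0.071, adjusted p = 0.000617), and 78.8, 83.1 and 77.2 CPM in 6694c2 cells, where it overlapped vehicle. Scd2, a stearoyl-CoA desaturase, read 902, 1008 and 980.5 CPM with vehicle and 769, 826 and 734 CPM with IFNβ in B16F10 cells (log2 fold change -0.31 ± 0.050, adjusted p = 2.33e-08). The values in 6694c2 cells were 1313, 1174 and 1228 CPM and 896, 964 and 836 CPM (log2 fold change -0.46 ± 0.064, adjusted p = 3.08e-07). Fads1, the delta-5 desaturase, read 127, 133 and 141 CPM with vehicle and 104, 111 and 106 CPM with IFNβ in B16F10 cells (log2 fold change -0.33 ± 0.058, adjusted p = 6.51e-07), and 172, 179 and 184 and 146, 145 and 163 CPM in 6694c2 cells (log2 fold change -0.24 ± 0.065, adjusted p = 0.00645). Each of these 6 falls was kept in every fit that left out 1 library. Interactions for IFNβ did not pass the threshold for Elovl6, Scd2 or Fads1, which does not show that the falls were equal.

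Fads2, the delta-6 desaturase, rose with IFNγ in both lines. It read 117, 132 and 121 CPM with vehicle and 164, 175 and 166 CPM with IFNγ in B16F10 cells (log2 fold change 0.45 ± 0.058, adjusted p = 1.94e-12). In 6694c2 cells it read 105, 98.6 and 99.3 CPM and 124, 125 and 142 CPM (log2 fold change 0.37 ± 0.068, adjusted p = 7.33e-05). The libraries did not overlap, and both calls were kept without any 1 library. With IFNβ Fads2 differed by -0.037 ± 0.058 in B16F10 cells and 0.14 ± 0.068 in 6694c2 cells, neither past the threshold. Scd1, the other desaturase of the Scd pair, read 79.2, 85.5 and 81.4 CPM with vehicle, 98.01, 100.1 and 96.04 CPM with IFNγ and 96.3, 96.9 and 91.9 CPM with STING agonist in B16F10 cells, and rose with both (0.26 ± 0.062, adjusted p = 0.000362, and 0.21 ± 0.063, adjusted p = 0.029). In 6694c2 cells Scd1 read 203, 185 and 206 CPM with vehicle and passed the threshold with no treatment (0.10, -0.033 and 0.20 with IFNγ, IFNβ and STING agonist). Scd1 and Scd2 are close paralogs, and reads that match both could have been split or dropped in counting.

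The enzymes that build palmitate moved little. Fasn, fatty acid synthase, read 437, 490.3 and 496 CPM with vehicle and 384, 451 and 355 CPM with IFNβ in B16F10 cells, and fell (log2 fold change -0.26 ± 0.053, adjusted p = 1.94e-05) although the groups overlapped. Its other differences were 0.10 with IFNγ and -0.15 with STING agonist in B16F10 cells. In 6694c2 cells the vehicle libraries of Fasn were spread from 295 to 414 CPM, and its differences of 0.26 ± 0.10, -0.099 ± 0.10 and 0.061 ± 0.10 with IFNγ, IFNβ and STING agonist did not pass the threshold. Acaca, acetyl-CoA carboxylase, rose with IFNβ in both lines (0.22 ± 0.060, adjusted p = 0.0023, and 0.25 ± 0.085, adjusted p = 0.0325). Its libraries overlapped in each: 101, 111 and 114 CPM with vehicle against 127, 139 and 114 CPM in B16F10 cells, and 109, 85.3 and 87.6 against 123, 111 and 102 CPM in 6694c2 cells. The call in 6694c2 cells was lost in 4 of 6 fits without 1 library, and that in B16F10 cells in 2 of 6, without vehicle replicate 1 or IFNβ replicate 2 (adjusted p up to 0.273 and 0.127). Acaca also rose with IFNγ in B16F10 cells (0.17 ± 0.060, adjusted p = 0.0198), a call lost without vehicle replicate 1 or IFNγ replicate 2 (adjusted p up to 0.227). Acly, which frees acetyl-CoA from citrate, fell with IFNβ in B16F10 cells (-0.14 ± 0.052, adjusted p = 0.0266), and this call was lost in 3 of 6 fits without 1 library (adjusted p up to 0.13). Acly was the one fatty acid gene with an interaction past the threshold, its IFNβ log2 fold change being higher in 6694c2 than in B16F10 cells (0.28 ± 0.080, adjusted p = 0.0164), and the call was lost without vehicle replicate 3 of 6694c2 cells (adjusted p = 0.0511). Srebf1 read 83.3, 77.4 and 78.1 CPM with vehicle in B16F10 cells and 249, 236 and 235 CPM in 6694c2 cells, and passed the threshold with no treatment in either line. Its log2 fold changes lay between -0.073, with STING agonist in B16F10 cells, and 0.18, with IFNβ in 6694c2 cells.

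Direct tests of IFNβ against IFNγ put 5 of 9 fatty acid genes lower with IFNβ in each line and none higher, where 7.85% of all genes were lower in B16F10 cells and 6.57% in 6694c2 cells (14.6% and 11.4% of well-read genes). In B16F10 cells these were Fads2 (-0.49), Fasn (-0.36), Elovl6 (-0.33), Fads1 (-0.33) and Scd2 (-0.27). In 6694c2 cells they were Elovl6 (-0.43), Fasn (-0.36), Scd2 (-0.30), Fads2 (-0.23) and Fads1 (-0.21). There the call of Fasn was lost with DESeq2 (adjusted p = 0.143) and in 3 of 6 fits without 1 library. Calls of Fads1 and Fads2 were lost in 4 and 2 of 6 such fits, while those of Elovl6 and Scd2 were kept in all 6. The medians of the list were -0.27 and -0.21 on the log2 scale, against 0 over all genes in each line. Without IFNγ replicate 3 of 6694c2 cells the count there became 2, and without IFNγ replicate 2 or IFNβ replicate 2 it became 3.

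At baseline most sterol genes stood higher in 6694c2 than in B16F10 cells. With vehicle 17 of 21 were higher and 3 lower, where 28.7% of all genes were higher and 29.3% lower (42.0% and 40.1% of the well-read genes). Differences over 2-fold were seen for 7 of the 21, near the 33% of all genes. The median difference of the list was 0.68 on the log2 scale, against -0.0057 over all genes. With library totals in place of TMM the median of all genes moved to -0.19 and the members moved by -0.18 with it, so these differences are relative to the scaling. Among fatty acid genes 5 were higher in 6694c2 cells and 2 lower, with a median of 0.58. These 7 of 9 were not above the 82.1% of well-read genes called, and 2 differed over 2-fold, where 33% of all genes did. The levels that follow are RPKM, that is CPM per kilobase of exon, scaled over all 24 libraries and given as mean ± SD of 3. The length is that of all exon bases of a gene in the count files, so ranks between genes depend on it. Hmgcs1 stood at 28.6 ± 0.807 in B16F10 and 93.4 ± 2.34 in 6694c2 cells, the highest level of a sterol gene in the latter (log2 difference 1.71 ± 0.057, adjusted p = 5.89e-27). Srebf2 stood at 26.2 ± 0.492 and 76.98 ± 3.56 (1.55 ± 0.061, adjusted p = 1.85e-24), and Idi1 at 7.08 ± 0.414 and 23.3 ± 0.564 (1.72 ± 0.074, adjusted p = 2.95e-23). For none of these did the libraries of the lines overlap.

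The sterol genes lower in 6694c2 cells were Dhcr7, Nsdhl and Hsd17b7. Dhcr7 stood at 14.9 ± 0.190 RPKM in B16F10 and 5.59 ± 0.201 RPKM in 6694c2 cells (-1.41 ± 0.076, adjusted p = 7.78e-20). Nsdhl stood at 16.4 ± 0.397 and 7.35 ± 0.296 RPKM (-1.16 ± 0.076, adjusted p = 4.28e-17). For Hsd17b7 the difference was small, 6.84 ± 0.0557 against 6.03 ± 0.506 RPKM, and the call was lost without vehicle replicate 2 or 3 of 6694c2 cells (log2 difference -0.18 ± 0.079, adjusted p = 0.0489, up to 0.246 without 1 library). Of the other enzymes after lanosterol Cyp51 (0.26), Msmo1 (0.68), Sc5d (0.48) and Tm7sf2 (0.80) were higher in 6694c2 cells on the log2 scale, and Ebp did not pass the threshold (0.040 ± 0.069, adjusted p = 0.651). Vps51, which shares exon bases with Tm7sf2, was also higher by 0.78, and its part in the Tm7sf2 counts was not tested. With library totals in place of TMM the call of Cyp51 was lost (log2 difference 0.081, adjusted p = 0.271). In B16F10 cells Cyp51 had the highest level of the sterol genes at 42.9 ± 0.660 RPKM, and in both lines Tm7sf2 the lowest (2.18 ± 0.280 and 3.79 ± 0.254 RPKM). The top rank of Cyp51 is uncertain, since Fdps shares 26.7% of its exon bases with Gm43738 on the same strand. Gm43738 had almost no reads (mean 0.083 per library), and whether reads in the shared part were counted for Fdps is not stated.

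Of the fatty acid genes, Scd2 was the highest in both lines at 165 ± 8.44 RPKM in B16F10 and 246 ± 13.7 RPKM in 6694c2 cells, above every sterol gene. Srebf1 stood at 13.2 ± 0.618 and 46.1 ± 1.47 RPKM (1.81 ± 0.070, adjusted p = 8.77e-25) and Scd1 at 15.8 ± 0.549 and 44.3 ± 2.50 RPKM (1.48 ± 0.060, adjusted p = 4.54e-24). These were the 2 fatty acid genes that differed over 2-fold. Elovl6 was also higher in 6694c2 cells, 8.23 ± 0.387 against 14.01 ± 0.763 RPKM (0.77 ± 0.066, adjusted p = 2.13e-13). Acly and Fasn were lower in 6694c2 cells (-0.16 ± 0.057, adjusted p = 0.0139, and -0.29 ± 0.11, adjusted p = 0.0206), calls that were each lost without vehicle replicate 2 or 3 of 6694c2 cells (adjusted p up to 0.0708 and 0.15). Both were also lost in an edgeR fit with a replicate block (adjusted p = 0.196 and 0.248), and that of Fasn with DESeq2 (adjusted p = 0.0778) and with a robust edgeR fit (adjusted p = 0.110). Acaca had the lowest level of the list per length (5.94 ± 0.347 and 5.95 ± 0.826 RPKM), and neither it nor Fads2 differed past the threshold. This rank rests on its 17074 exon bases, since Acaca had more reads over the 24 libraries than Elovl6 (60345 against 34892).

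**Figure D4:**
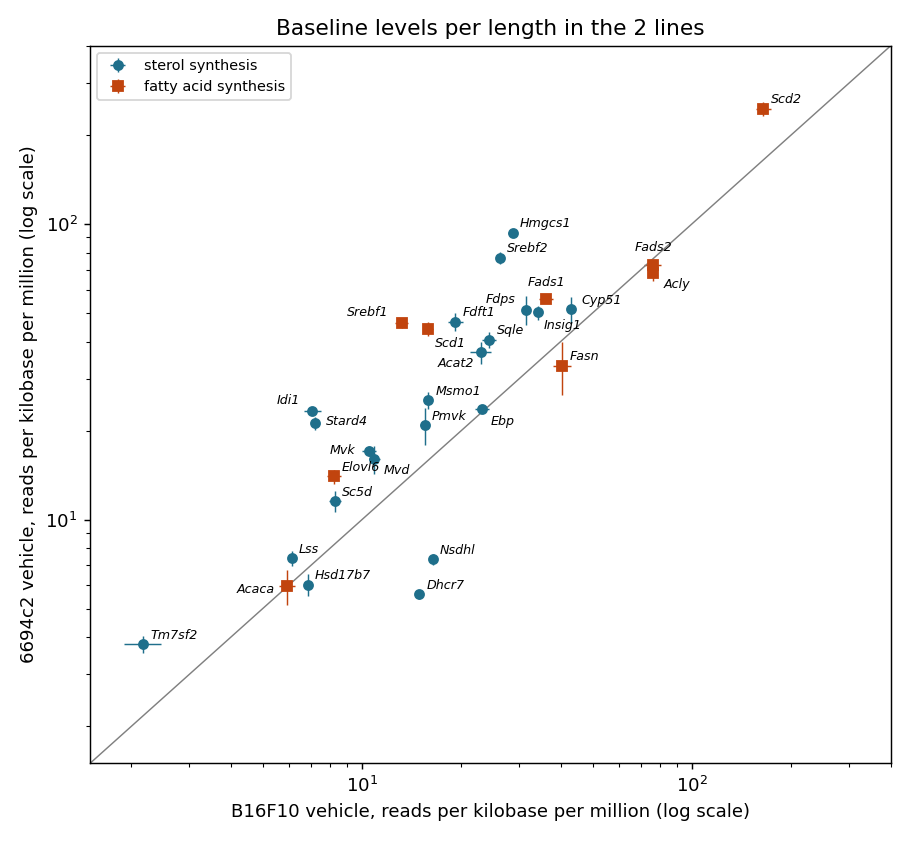
Level per length of each member with vehicle in B16F10 cells (horizontal axis) and 6694c2 cells (vertical axis), in RPKM on log scales, as mean ± SD of 3 libraries; the line marks equal levels. Most sterol genes (circles) lie above the line, Dhcr7 and Nsdhl below it, and Scd2 is highest in both lines among fatty acid genes (squares).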

How the data were processed

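Total RNA was sequenced from 24 libraries of 6694c2 and B16F10 cells. The deposited files hold read counts per Ensembl gene, made by the authors with cutadapt, STAR and Rsubread on mm10 (per the submitters' processing notes, whose versions are not used here). Strand use and the treatment of reads matching several genes are not given in the sources used here. Symbols came from GENCODE M21, which covers 48970 of 49315 identifiers. Genes with at least 10 reads over the 24 libraries were kept (21138), and depths ranged from 15543131 to 32266795 reads per library. The least-read value of a member was 141 reads (Tm7sf2), so counting error is not negligible for the least-read members.

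Counts were scaled by TMM and tested with edgeR 4.0.16 (glmQLFit and glmQLFTest, R 4.3.3), separately within each line over its 12 libraries with group as the only term. The comparison of vehicle groups and the interactions used all 24 libraries. Benjamini-Hochberg adjustment ran over all genes kept. The study's own tool, DESeq2 (1.42.0), other scalings, filters and sample sets, a replicate block, each library left out and subtraction of the other line's share were alternatives, the last chosen after seeing the data, as was the comparison with well-read genes. The steps were tested on simulated data. Members and lists were chosen with earlier results of these data known. Related genes were named by smallest p-value, at most 2 in each direction per list and comparison, and Ch25h was named after its values were seen. Some genes and alleles are not reported here. Promoter sequences are from RefSeq GRCm38.p6. Single-cell samples of the series are not analysed here.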

Additional observations from a re-analysis of the deposited data

Results flagged for a closer look

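The change with a treatment differed between the 2 lines, by the interaction test, for 14 gene and treatment pairs in sterol synthesis and 1 in fatty acid synthesis. Values are the log2 fold change in 6694c2 cells minus that in B16F10 cells, with the adjusted p-value of edgeR's quasi-likelihood test. With IFNγ the difference was -0.91 ± 0.11 for Hsd17b7 (adjusted p = 5.68e-08), -0.78 ± 0.10 for Idi1 (adjusted p = 3.13e-07) and -0.37 ± 0.085 for Msmo1 (adjusted p = 0.00253). These 3 kept their call in all 12 fits that left out 1 library, as did Pmvk, at 0.49 ± 0.12 (adjusted p = 0.00508). It was -0.38 ± 0.097 for Ebp (adjusted p = 0.0066, kept in 10 of 12 fits), -0.30 ± 0.079 for Hmgcs1 (adjusted p = 0.00816, 8 of 12), -0.36 ± 0.10 for Stard4 (adjusted p = 0.0184, 5 of 12) and -0.33 ± 0.11 for Dhcr7 (adjusted p = 0.042, 2 of 12).

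With IFNβ the difference was 0.76 ± 0.12 for Pmvk (adjusted p = 1.12e-05), 0.56 ± 0.089 for Cyp51 (adjusted p = 1.28e-05), 0.48 ± 0.083 for Insig1 (adjusted p = 4.82e-05) and 0.31 ± 0.085 for Srebf2 (adjusted p = 0.0098), all kept in 12 of 12 fits. For Acly it was 0.28 ± 0.080 (adjusted p = 0.0164, 11 of 12). With STING agonist it was -0.40 ± 0.10 for Idi1 (adjusted p = 0.0241, 5 of 12) and -0.29 ± 0.079 for Hmgcs1 (adjusted p = 0.0417, 1 of 12).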

How the results depend on the processing

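Of 139 calls of members, 93 were kept under every alternative and 46 lost under at least 1, and none reversed. In counts of sterol genes called, library totals without TMM gave 2 with IFNγ (6 in the report) and 0 with STING agonist in 6694c2 cells, where RLE size factors, a stricter count filter (filterByExpr) and subtraction of the other line's share also gave 0. With IFNβ in 6694c2 cells no filter gave 5 and a fit over the 6 libraries compared 4, beside 8. For the STING agonist interaction DESeq2 gave 5 and the subtraction 0, beside 2. Of fatty acid genes, a fit over 24 libraries gave 3 with IFNβ in B16F10 cells, beside 6, and a fit over 6 libraries 3 with STING agonist, beside 1. With IFNγ in 6694c2 cells library totals, no filter, a fit over 24 libraries and the replicate block each gave 2, beside 1. DESeq2 and RLE each gave 1 for the IFNγ interaction, beside 0, and library totals 0 for the IFNβ interaction, beside 1. The cause of these changes was not tested.

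Leaving out 1 library at a time gave, for sterol genes in 6694c2 cells, between 2 and 5 with IFNγ, 4 and 8 with IFNβ, 0 and 1 with STING agonist and 2 and 5 for IFNβ against IFNγ. For the interactions it gave between 4 and 9 with IFNγ and 0 and 2 with STING agonist. For fatty acid genes it gave between 1 and 3 with IFNγ and 2 and 5 for IFNβ against IFNγ in 6694c2 cells, 0 and 1 with STING agonist in B16F10 cells and 0 and 1 for the interactions with IFNγ and with IFNβ.

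Libraries of the same number in different groups did not deviate together (correlations from -0.45 to 0.36), so the numbers are not taken as pairs, and the replicate block moved no other count of members by over 1.5 times. With 3 libraries per group from 1 line of each tumour, the results describe these libraries, and differences of about 0.2 on the log2 scale lay near the limit of what was called.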

Other observations

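Among 19 other genes of lipid building, 7 rose and 3 fell with IFNγ in B16F10 cells, and 3 rose and 3 fell in 6694c2 cells. Of all genes 12% and 7.89% rose and 10.8% and 5.66% fell. The called genes were 52.6% and 31.6% of the list, against 40.7% and 23.7% of well-read genes. Acsl5, which activates fatty acids, read 135, 126 and 139.9 CPM with vehicle and 261, 257 and 264 CPM with IFNγ in B16F10 cells (log2 fold change 0.97 ± 0.056, adjusted p = 7.71e-48), and rose in 6694c2 cells too (log2 fold change 0.34 ± 0.061, adjusted p = 4.24e-05). In 6694c2 cells Dgat2, which makes triglyceride, read 25.5, 31.96 and 29.7 CPM with vehicle and 11.2, 13.1 and 12.7 CPM with IFNγ, without overlap (log2 fold change -1.23 ± 0.099, adjusted p = 1.54e-13).

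Among 16 genes of fatty acid oxidation, 3 rose and 1 fell with IFNγ in B16F10 cells and 1 rose and 3 fell in 6694c2 cells. That was 25% of the list in each line, below and near the 40.7% and 23.7% of well-read genes. With IFNβ 4 rose and 1 fell in B16F10 cells and 1 rose and 4 fell in 6694c2 cells. In B16F10 cells that was 31.25% of the list, against 43.5% of well-read genes. In 6694c2 cells 33.1% of well-read genes were called. Acadm, the medium-chain dehydrogenase, fell in 6694c2 cells with IFNγ (log2 fold change -0.35 ± 0.072, adjusted p = 0.00038) and with IFNβ (log2 fold change -0.40 ± 0.072, adjusted p = 3.39e-05). Eci1, an isomerase of unsaturated fatty acids, rose in B16F10 cells with IFNγ (log2 fold change 0.59 ± 0.071, adjusted p = 4.36e-14).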
